A study of Homo sapiens with 36 samples.

Results

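The comparison of OCIAML3 cells that received cytarabine and daunorubicin together with OCIAML3 cells that received DMSO rested on 6 of the 36 libraries of the series, 3 for each treatment. The combination cells were exposed to 0.1 µM cytarabine plus 0.02 µM daunorubicin for 24 h, and the DMSO cells to the vehicle for the same time. OCIAML3 grew in alpha-MEM with serum and the other lines in RPMI with serum, RNA was taken with Trizol, and libraries were paired-end and unstranded. The labels give every line a WT genotype and name no further agent, and the 3 replicates of a group are labelled as biological without a statement of separate days or cultures, so that a p-value here reflects only how these particular libraries vary. The series also holds each drug alone in OCIAML3, and all 4 treatments in MOLM13 and HL60.

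Libraries were taken by cell line and treatment label, and the main values come from combination replicates 1 and 2, which were chosen by their gene expression against these same DMSO libraries, where the library labelled combination replicate 3 lay near DMSO. That choice used the same contrast as the results, so fold changes and counts from replicates 1 and 2 are descriptions, and the test is the fit with all 3 combination libraries as labelled. The 3 combination libraries held 32199180, 42716152 and 47322144 estimated counts, and the 3 DMSO libraries held 32682508, 45364994 and 31639127.

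OCI-AML3 is an acute myeloid leukemia line with myelomonocytic features and mutations of NPM1 and DNMT3A. Cytarabine is a cytidine analog that is phosphorylated in the cell, built into DNA and stalls replication forks. Daunorubicin, an anthracycline, slides between DNA bases and traps type II topoisomerases on broken DNA. Broken or stalled DNA activates kinases that stabilize p53, a transcription factor that raises genes for cell cycle arrest, repair and apoptosis, and p21 (CDKN1A) made in this way keeps E2F and cell cycle genes repressed. MOLM13 carries an internal tandem duplication of FLT3 and a KMT2A fusion, and HL60 is a promyelocytic line.

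The 3 combination libraries did not share a position. Genes called in the other lines served as a yardstick whose calls used no OCIAML3 library, kept where they also passed the low-count filter in OCIAML3. Over the 1602 of 1910 genes that rose after the combination in MOLM13, the mean difference in log2(CPM + 0.5) from the OCIAML3 DMSO mean (CPM, a read count scaled to the size of its library) was 0.73 in combination replicate 1, 0.55 in replicate 2 and -0.03 in the library labelled replicate 3, against 0.03, -0.01 and -0.02 in the DMSO libraries. Over the 881 of 908 genes that fell in MOLM13 it was -0.71, -0.50 and 0.05 in the combination libraries and lay between -0.04 and 0.03 in the DMSO libraries. The genes of HL60 gave the same order, with 0.44, 0.35 and 0.01 over 2206 of the 2650 genes that rose there. Thus replicates 1 and 2 stood apart from DMSO, replicate 1 farther than replicate 2, and the library labelled replicate 3 stood with DMSO. On the same 1602 genes the OCIAML3 daunorubicin libraries lay at 0.67, 0.51 and 0.32, and the cytarabine libraries at -0.004, 0.0 and 0.298. The cytarabine library labelled replicate 3 therefore stood near a daunorubicin library. Whether any tubes were exchanged was not tested, and the labels were kept.

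**Figure D1:**
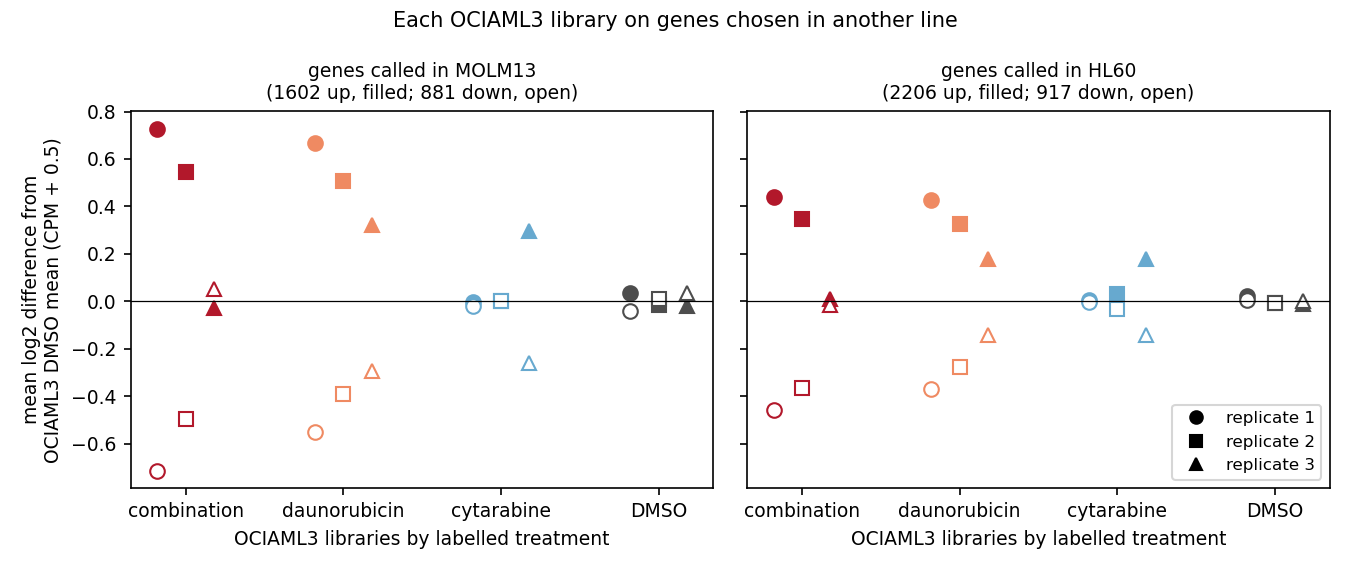
Mean difference in log2(CPM + 0.5) of each OCIAML3 library, by labelled treatment, from the OCIAML3 DMSO mean, over genes that rose (filled) or fell (open) after the combination in MOLM13 (left) or HL60 (right), with a marker shape for each replicate. On the genes that rose in MOLM13, combination replicates 1 and 2 lie at 0.73 and 0.55, the library labelled combination replicate 3 at -0.03, and the DMSO libraries between -0.02 and 0.03.

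In combination replicates 1 and 2, 1014 genes were higher and 305 were lower than in DMSO past both thresholds, which were a Benjamini-Hochberg adjusted p from edgeR below 0.05 and more than 1 log2 unit of change. These were 5.95% and 1.79% of 17045 genes tested, 7.74% in all, in a fit of 11 OCIAML3 libraries without combination replicate 3. With all 3 combination libraries as labelled, edgeR's quasi-likelihood test called 0 of 16650 genes. In that fit 3874 genes had an unadjusted p under 0.05, the smallest Benjamini-Hochberg adjusted p was 0.209, and DESeq2 called 8 genes. The library labelled replicate 3, set against DMSO alone, gave 1 call among 18023 genes (0.00555%) and 337 genes at an unadjusted p under 0.05. The called gene was FKBPL, an immunophilin-like gene of the MHC region named here after its values were seen, with an estimated count of 0 in that library.

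The median log2 fold change over all genes tested was 0.03, while the 1014 higher genes had a median of 1.48 and the 305 lower genes one of -1.39. Of the higher genes 768 were protein-coding and 212 were lncRNAs, and 439 of them (43.3%) averaged less than 1 CPM in DMSO. Replicate 1 was farther from DMSO than replicate 2 in 836 of the 1014 higher genes and in 237 of the 305 lower ones. Both replicates lay above every DMSO library in 1014 of the 1014 higher genes, and below every one in 301 of the 305 lower genes. On a log2 scale, the library labelled replicate 3 was nearer to the DMSO mean than to the mean of replicates 1 and 2 in 948 of the higher and 292 of the lower genes. All these genes were called because replicates 1 and 2 differed from DMSO, so these counts depend on that choice. At the fold threshold, LINC00240 (1.001) and CMYA5 (-1.003) lay just inside, and ITM2B (1.0) and GINS1 (-0.999) just outside. Leaving out combination replicate 1 reduced the calls to 579. In bulk RNA, fewer cells of a kind and less RNA per cell cannot be told apart.

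Targets of p53 that hold the cell cycle or feed back on p53 were higher in the first pair of combination libraries. Of 15 measured genes of this list, 11 were higher past both thresholds and 0 were lower, with a median log2 fold change of 1.38 (-0.11 in the library labelled replicate 3). Their summed level was 3186 and 2748 CPM in combination replicates 1 and 2, with 723.6 CPM in combination replicate 3 as labelled, against 714.0 to 826.5 CPM in DMSO. In the labelled fit the adjusted p-values of the 15 genes lay between 0.209 and 0.269, so none passed. Over all genes tested in replicates 1 and 2, 5.95% were higher and 1.79% lower past both thresholds. These shares are the background for this and every later list count of replicates 1 and 2. A gene near 0 in DMSO could pass the low-count filter through treated libraries alone, and could then be called higher but not lower. Where 3 values are given for a gene, they are those of replicates 1, 2 and 3 in that order, the last combination value being that of the library labelled replicate 3, and the value in brackets is the log2 fold change of replicates 1 and 2 with its SE.

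CDKN1A (ENSG00000124762, chr6:36676460-36687337, GRCh38), which encodes the kinase inhibitor p21, measured 1389 and 1082 CPM in combination replicates 1 and 2, with 84.3 CPM in combination replicate 3 as labelled, against 105, 90.6 and 78.5 CPM in DMSO. Its log2 fold change was 3.77 ± 0.57 (SE), and 3.22 with an adjusted p of 0.209 as labelled. GDF15, a stress-induced cytokine of the TGF-beta family, measured 104, 59 and 2.1 CPM with the combination, against 2.05, 1.1 and 1.43 CPM in DMSO, a log2 fold change of 5.78 ± 0.98. The ubiquitin ligase MDM2, which degrades p53, had 660.3, 627 and 209.9 CPM with the combination, against 250, 230 and 207 CPM in DMSO (1.51 ± 0.23). For all 3 genes the first pair of combination libraries stood clear of every DMSO library, whereas the library labelled replicate 3 lay within or close to the DMSO range. TP53INP1, a cofactor that directs p53 to death genes, reached 139, 107 and 22.3 CPM with the combination, against 22.7, 23.4 and 20 CPM in DMSO (2.5 ± 0.34). The antiproliferative gene BTG2 reached 115, 106 and 26.4 CPM with the combination, against 36.7, 31.4 and 27.7 CPM in DMSO (1.8 ± 0.31). PLK2, a polo-like kinase that responds to p53, measured 19.1, 19.5 and 5.48 CPM with the combination, against 6.35, 6.29 and 6.1 CPM in DMSO (1.64 ± 0.26). GADD45A, SESN1, ZMAT3, PHLDA3 and BTG1 were also past both thresholds, with log2 fold changes of 1.38, 1.38, 1.43, 1.23 and 1.01.

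**Figure D2:**
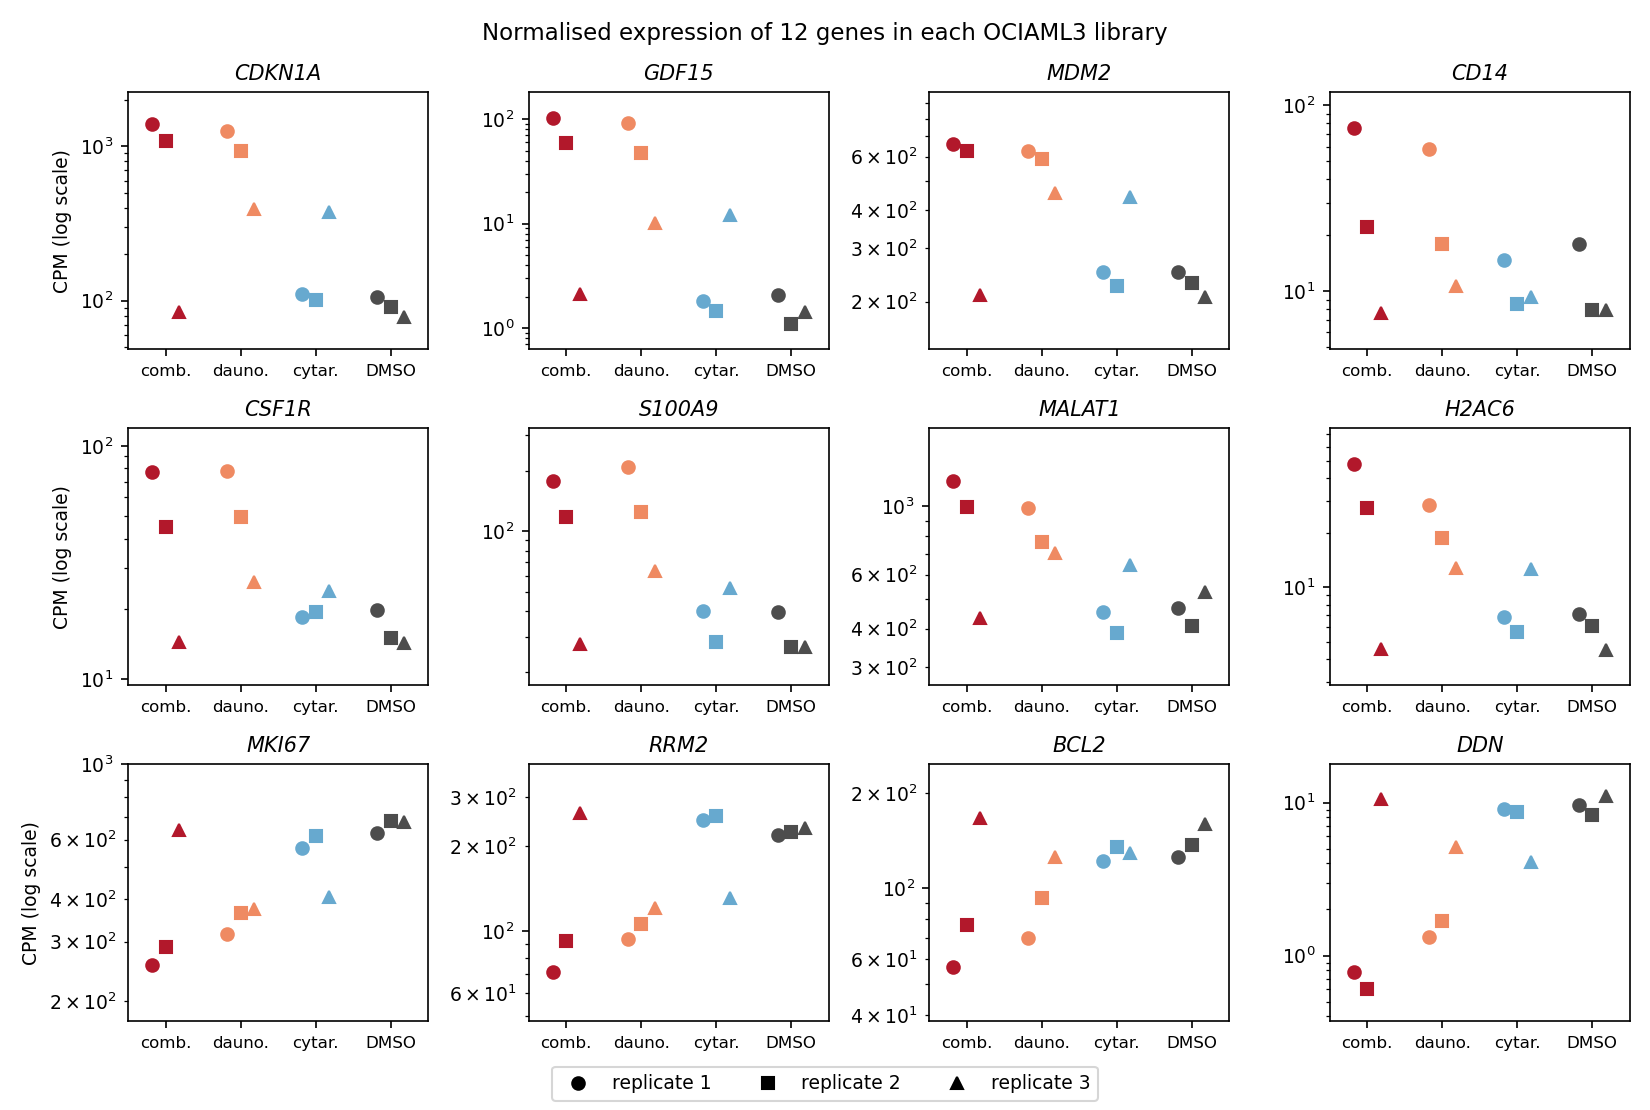
CPM (log axis) of 12 genes in each OCIAML3 library, by treatment from combination (left) through each single drug to DMSO (right), with a marker shape for each replicate. CDKN1A stands at 1389 and 1082 CPM in combination replicates 1 and 2 while the library labelled replicate 3 stands at 84.3 CPM and lies among the DMSO libraries in most panels.

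The promoters of 2 higher genes are shown because each holds a match to the decamer of the p53 response element, which is in capitals, in the 250 bases before the annotated start (RefSeq, GRCh38.p14, both strands searched). The windows are chr5:58460087-58460336 on the minus strand for PLK2 and chr17:74872995-74873244 on the minus strand for FDXR, an electron carrier of mitochondrial steroid and iron-sulfur synthesis.
PLK2: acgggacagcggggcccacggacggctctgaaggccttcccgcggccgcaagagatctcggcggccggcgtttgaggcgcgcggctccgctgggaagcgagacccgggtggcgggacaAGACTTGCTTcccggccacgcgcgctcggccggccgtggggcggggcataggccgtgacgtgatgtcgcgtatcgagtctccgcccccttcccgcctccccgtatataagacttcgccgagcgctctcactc
FDXR: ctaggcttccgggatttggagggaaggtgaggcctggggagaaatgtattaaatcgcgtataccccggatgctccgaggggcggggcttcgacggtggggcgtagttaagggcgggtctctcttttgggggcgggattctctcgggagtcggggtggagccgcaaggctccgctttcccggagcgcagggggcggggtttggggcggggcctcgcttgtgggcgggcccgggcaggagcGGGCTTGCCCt
The decamer was found in 4.56% of 11448 promoters of tested genes, in 6.65% of 662 promoters of higher genes and in 5.53% of all 27305 promoters of this length. In the p53 lists for arrest, death, and repair and metabolism it was in 1 of 12, 1 of 9 and 2 of 13 promoters. The match is a description of these letters and not a bound site.

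Among p53 targets that act in cell death, 4 of 14 were higher and 0 lower (median log2 fold change 0.50). The death receptor FAS measured 38.6, 35.5 and 16.1 CPM with the combination, against 14.8, 15.5 and 14.6 CPM in DMSO (1.32 ± 0.17). BBC3, which encodes the BH3-only protein PUMA, measured 42.7, 46 and 20.7 CPM with the combination, against 19.9, 22.9 and 19.8 CPM in DMSO (1.10 ± 0.18). The decoy receptor gene TNFRSF10C and the quinone oxidoreductase gene TP53I3 were higher by 2.54 and 1.71 log2 units. BAX (0.45) and PMAIP1, which encodes NOXA (0.07), did not pass the fold threshold.

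Repair and metabolic targets of p53 followed, with 6 of 16 higher and 0 lower (median 0.84). FDXR, shown above, measured 126, 144 and 47.5 CPM with the combination, against 43.9, 48.9 and 45.7 CPM in DMSO (1.57 ± 0.30). RRM2B, the p53-inducible subunit of ribonucleotide reductase, measured 321, 299 and 132 CPM with the combination, against 136, 141 and 127 CPM in DMSO (1.22 ± 0.17). Both genes were far above DMSO in the first pair of libraries and within the DMSO range in the library labelled replicate 3. TIGAR, a phosphatase that lowers glycolysis, TRIM22, SPATA18 and EDA2R were higher by 1.31, 1.32, 2.78 and 1.53, the last 2 from levels under 1 CPM in DMSO.

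The BCL2 family differed in few members. Of 15 members 2 were higher (BBC3 and BCL2A1) and 1 was lower. BCL2, the anti-apoptotic protein that venetoclax binds, measured 56.5 and 77 CPM in the first pair of combination libraries, with 167 CPM in combination replicate 3 as labelled, against 125, 137 and 159.5 CPM in DMSO (-1.06 ± 0.21). MCL1 and BCL2L1, the other main survival members, were at 0.37 and 0.38 log2 units.

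Proliferation genes were lower by modest amounts over nearly whole lists. Of 32 measured mitosis genes 29 lay below every DMSO library in both replicates, as 31.2% of all genes tested did, with a median log2 fold change of -0.67, and 4 passed the fold threshold. MKI67, the proliferation marker Ki-67, measured 257, 289 and 639 CPM with the combination, against 628, 682 and 677 CPM in DMSO (-1.26 ± 0.15). PIF1, a DNA helicase, measured 8.21, 11.8 and 13.2 CPM with the combination, against 21.6, 23.5 and 19.3 CPM in DMSO (-1.08 ± 0.18). The PIF1 level of the library labelled replicate 3 was thus also below DMSO, unlike that of MKI67. The checkpoint kinase BUB1B and the chromosomal passenger kinase AURKB had log2 fold changes of -1.03 and -1.01. TOP2A, the topoisomerase of dividing cells that daunorubicin traps, was at -0.54 and CCNB1 at -0.51, inside the fold threshold. In the labelled fit the smallest adjusted p among the 32 genes was 0.209.

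The promoters of MKI67 (chr10:128126424-128126673, minus strand) and PIF1 (chr15:64825648-64825897, minus strand) are printed because they were the lower mitosis genes with the largest decrease whose window held both the CCAAT box, which binds NF-Y, and the CHR element TTTGAA, through which the DREAM complex represses genes in arrested cells. Capitals mark both motifs on either strand (CCAAT reads as ATTGG on the other), and in MKI67 the last pair overlaps.
MKI67: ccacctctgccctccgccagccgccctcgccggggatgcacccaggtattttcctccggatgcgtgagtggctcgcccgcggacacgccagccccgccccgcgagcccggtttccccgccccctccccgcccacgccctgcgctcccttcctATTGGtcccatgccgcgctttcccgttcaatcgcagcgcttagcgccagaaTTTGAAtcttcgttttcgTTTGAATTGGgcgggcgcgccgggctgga
PIF1: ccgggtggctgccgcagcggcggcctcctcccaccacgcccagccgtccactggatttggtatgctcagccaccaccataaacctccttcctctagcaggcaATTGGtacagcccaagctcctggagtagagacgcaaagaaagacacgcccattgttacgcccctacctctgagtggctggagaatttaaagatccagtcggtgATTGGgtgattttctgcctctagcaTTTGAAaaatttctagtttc
Among 27 mitosis promoters matched, 21 (77.8%) held CCAAT, 17 (63%) TTTGAA and 15 (55.6%) both, against 34.9%, 8.86% and 3.53% of the 11448 promoters of tested genes. These letters describe the list, whose genes were assembled for their known role. Among 180 promoters of all lower genes the shares were 35.6%, 10% and 3.89%.

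DNA replication genes gave the same picture. Of 37 measured, 35 were below every DMSO library in replicates 1 and 2, as 31.2% of all genes tested were. The median log2 fold change was -0.78, and FEN1 and RRM2 passed the fold threshold. RRM2, the S-phase subunit of ribonucleotide reductase, measured 71.2 and 92 CPM in the first pair of combination libraries, with 262 CPM in combination replicate 3 as labelled, against 219, 225 and 233 CPM in DMSO (-1.45 ± 0.24). The flap nuclease FEN1 measured 75, 107 and 227 CPM with the combination, against 171, 191 and 199 CPM in DMSO (-1.02 ± 0.18). Both were highest in the library labelled replicate 3, whose list median was 0.16 above DMSO. The helicase gene MCM2 and the origin factor CDC6 had -0.95 and -0.86, and the sliding clamp PCNA, also a p53 target, -0.08. The E2F site GCGGGAA was in 13 of 33 of these promoters (39.4%) and in 8.44% of promoters of tested genes. Among 180 promoters of all lower genes its share was 8.33%.

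Among 22 genes that time entry into S phase, 2 were higher and 2 lower. E2F8, a repressive E2F made in S phase, measured 11.9, 12.6 and 49.3 CPM with the combination, against 37.5, 41.6 and 43.2 CPM in DMSO (-1.72 ± 0.24). Cyclin E2 (CCNE2) measured 11.3, 14.2 and 49.2 CPM with the combination, against 31.8, 41.4 and 40.1 CPM in DMSO (-1.55 ± 0.32). In the opposite direction the kinase inhibitor CDKN2B (p15) measured 14.8, 13.4 and 1.57 CPM with the combination, against 1.99, 1.83 and 1.49 CPM in DMSO (3.01 ± 0.53). CCND1, cyclin D1, was higher by 1.24. Of 26 genes of break and crosslink repair 0 passed the fold threshold, and the median was -0.59. In both replicates 23 of them were below every DMSO library, as 31.2% of all genes tested were.

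Replication-dependent histone genes went the other way from the replication machinery. Their messages normally end in a stem loop without a poly(A) tail, and polyadenylated forms from the same genes are known from differentiating cells. Of 55 genes 28 were measured, 13 were higher and 4 lower, and the median was 1.44. H2AC6 measured 48.2, 27.6 and 4.53 CPM with the combination, against 7.07, 6.06 and 4.51 CPM in DMSO (2.70 ± 0.39). H2BC5 measured 17.1, 9.77 and 1.66 CPM with the combination, against 3.26, 2.46 and 1.66 CPM in DMSO (2.46 ± 0.44), and H2BC21 was higher by 2.56. H4C14 had 26.7, 17.2 and 3.58 CPM with the combination, against 4.62, 0.749 and 0.299 CPM in DMSO, so that 1 DMSO library was well above the other 2. The linker histone gene H1-4 was lower, with 0.314, 0.168 and 0.707 CPM with the combination, against 1.17, 0.959 and 1.33 CPM in DMSO (-2.24 ± 0.46). The summed level of the list was 224.8 and 132.7 CPM in replicates 1 and 2, with 32.3 CPM in combination replicate 3 as labelled, against 35.2 to 50.02 CPM in DMSO. Copies of these genes are near-identical, so the split of counts between them is uncertain, and although the study describes sequencing of total RNA, whether messages were selected before library preparation is not given in the sources used here.

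All 26 measured genes of ribosome biogenesis were below every DMSO library in replicates 1 and 2 (median -0.66), as 31.2% of all genes tested were. Of the 26 genes 0 passed the fold threshold. Nucleolin (NCL), a major nucleolar protein, measured 799.6, 961 and 1576 CPM with the combination, against 1482, 1522 and 1564 CPM in DMSO (-0.77 ± 0.14). MYC, which drives these genes, measured 127, 156 and 245 CPM with the combination, against 255, 243 and 254 CPM in DMSO (-0.81 ± 0.13). MXD1 and MXD4, which compete with MYC for MAX, were higher by 1.26 and 1.10. Chaperones were likewise lower in part, with a list median of -0.51 and the HSP90 cochaperone FKBP4 past the threshold (-1.09). Cholesterol and fatty acid synthesis had 0 of 22 genes past the threshold (median -0.30).

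Many genes of mature monocytes and macrophages were higher. Of 24 measured surface genes 12 were higher and 2 lower (median 1.11), and of 16 complement, formyl peptide and Toll-like receptor genes 10 were higher and 0 lower (median 1.85). CSF1R, the receptor for macrophage colony-stimulating factor, measured 77.3, 44.7 and 14.4 CPM with the combination, against 19.6, 15 and 14.3 CPM in DMSO (1.92 ± 0.36). CD14, a coreceptor for lipopolysaccharide, measured 75.2, 22.2 and 7.64 CPM with the combination, against 17.9, 7.91 and 7.93 CPM in DMSO (2.14 ± 0.67). In these genes replicate 1 was well above replicate 2, and DMSO replicate 1 was the highest DMSO library. The integrin ITGAM (CD11b) reached 29.2, 20.4 and 6.65 CPM with the combination, against 8.4, 7.7 and 6.9 CPM in DMSO (1.71 ± 0.26), and the scavenger receptor CD36 636, 505 and 182 CPM with the combination, against 212, 197 and 185 CPM in DMSO (1.55 ± 0.25). The complement receptor C3AR1 had 9.65, 4.16 and 1.02 CPM with the combination, against 1.53, 1.4 and 0.763 CPM in DMSO (2.49 ± 0.62). Its relative C5AR1 had 11.4, 2.33 and 0.375 CPM with the combination, against 1.63, 0.351 and 0.299 CPM in DMSO (3.21 ± 1.08), so that replicate 2 was close to DMSO replicate 1.

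Receptors for the Fc part of IgG did not follow. FCGR1A, the high-affinity receptor CD64, measured 15, 16.3 and 45.2 CPM with the combination, against 44, 43.1 and 45.6 CPM in DMSO (-1.48 ± 0.22). FCGR2C measured 7.2, 3.97 and 13.3 CPM with the combination, against 32.8, 15.6 and 19.5 CPM in DMSO (-2.01 ± 0.45), and FCGR2B was at -1.33. The 2 last genes are near-identical copies, so their counts are uncertain. FCGR2A, also on chromosome 1, was at 0.24.

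The microbicidal genes differed unevenly. NCF1 (p47phox) of the NADPH oxidase measured 1096, 945 and 262 CPM with the combination, against 321, 289 and 267 CPM in DMSO (1.82 ± 0.24), and CYBB, the catalytic subunit, was at 0.25. NCF1 also has near-identical pseudogenes. S100A9, which forms calprotectin with S100A8, measured 178, 118 and 27.4 CPM with the combination, against 39.7, 26.7 and 26.7 CPM in DMSO (2.27 ± 0.41), and S100A8 was higher by 1.88. PRTN3, proteinase 3 of promyelocyte granules, measured 81.4, 115 and 307 CPM with the combination, against 356, 324 and 301 CPM in DMSO (-1.72 ± 0.27). Thus calprotectin genes were higher while this granule protease was lower. The regulators SPI1 and CEBPA were at 0.29 and -0.03. The PU.1 site GAGGAAG, which SPI1 binds, was in 8 of 20 surface gene promoters (40%) and in 11.9% of those of tested genes. Among 662 promoters of all higher genes its share was 12.8%.

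Some genes for secreted signals were higher. Of 22 chemokine genes 13 were measured and 6 were higher. Of 25 cytokine and growth factor genes 18 were measured and 9 were higher, with 0 lower in both lists. Members near 0 in DMSO could only be called higher. CXCL8, which attracts neutrophils, measured 361, 258 and 122 CPM with the combination, against 116, 104 and 112 CPM in DMSO (1.5 ± 0.26). IL1B, the inflammasome cytokine, measured 94.1, 49.8 and 17.8 CPM with the combination, against 20.1, 14.2 and 19.5 CPM in DMSO (2.03 ± 0.39). LIF, a cytokine of the IL-6 family and a known p53 target, had 19, 20.9 and 5.74 CPM with the combination, against 3.84, 4.73 and 4.81 CPM in DMSO (2.17 ± 0.38). The anti-inflammatory cytokine IL10 had 6.51, 2.07 and 0.375 CPM with the combination, against 0.326, 0.0702 and 0.299 CPM in DMSO (4.27 ± 0.79), from a level under 1 CPM, and the growth factor FGF2 was higher by 2.98. TGFA, HBEGF and IL18 were higher by 2.09, 1.77 and 2.28.

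Among 27 AP-1 and immediate early genes 8 were higher and 2 lower. JUN measured 55, 37.6 and 8.7 CPM with the combination, against 14, 10.8 and 10.4 CPM in DMSO (1.99 ± 0.41), and its partner FOS 118, 88.4 and 35.7 CPM with the combination, against 47.1, 44.7 and 36.8 CPM in DMSO (1.28 ± 0.21). ATF3, EGR1 and the ERK phosphatase DUSP6 were higher by 1.97, 1.28 and 2.33. KLF2, a factor of quiescent leukocytes and endothelium, was lower, with 6.48, 7.65 and 15.6 CPM with the combination, against 13, 17.2 and 16.8 CPM in DMSO (-1.13 ± 0.23). Of 14 NF-kB genes 4 were higher, with NFKBIZ at 1.35 and BCL3 at 1.38, both atypical inhibitors of the nucleus.

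Adhesion and matrix genes were higher in part. FN1, fibronectin, measured 10950, 5088 and 879 CPM with the combination, against 2834, 1662 and 824 CPM in DMSO (2.19 ± 0.67). Its DMSO libraries spread widely, with replicate 1 the highest, and both combination replicates lay above all of them. PECAM1, an adhesion molecule of leukocytes and endothelium, had 297, 211 and 57.3 CPM with the combination, against 93, 71.7 and 55.6 CPM in DMSO (1.81 ± 0.33). In all, 10 of 25 integrin and adhesion genes, 7 of 17 coagulation and matrix genes and 7 of 13 genes for the clearance of dying cells were higher, and TIMP3, an inhibitor of matrix proteases, was lower (-1.22). Among the clearance genes the receptor tyrosine kinases AXL and MERTK were higher by 1.84 and 2.84 from low levels.

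Of 28 interferon-stimulated genes 11 were higher and 0 lower (median 0.99). STAT2, a subunit of the interferon-activated factor, measured 90.7, 68.6 and 28.6 CPM with the combination, against 34, 30.4 and 28.7 CPM in DMSO (1.38 ± 0.25). IFIT2, which binds foreign RNA, had 11.6, 7.26 and 1.24 CPM with the combination, against 1.37, 1.99 and 1.69 CPM in DMSO (2.49 ± 0.38), and RIGI, the RNA sensor, was higher by 1.30. The cytidine deaminase APOBEC3G had 44.9, 46.4 and 19.7 CPM with the combination, against 21.8, 19.9 and 19 CPM in DMSO (1.19 ± 0.19), while APOBEC3B, on the same locus, was at -0.75. Of 23 antigen presentation genes 14 were measured, and HLA-C, HLA-E, TAP2 and HLA-DRA were among those that were not. Why they were missing was not tested. TAP1, the peptide transporter, was the 1 of the 14 past the thresholds (1.10), and this interferon-inducible gene is also a p53 target. Among 22 HOX and cofactor genes, which mutant NPM1 keeps high, 5 were higher, and HOXA9 (0.02) and MEIS1 (0.09) did not pass.

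Genes that handle the drugs were followed separately. SLC29A1, the ENT1 transporter that brings cytarabine into cells, measured 68.9 and 97.5 CPM in the first pair of combination libraries, with 179 CPM in combination replicate 3 as labelled, against 166, 176 and 175 CPM in DMSO (-1.03 ± 0.16). DCK, the kinase that activates cytarabine, was at -0.35, and the inactivating enzymes CDA and SAMHD1 were at 0.03 and 0.27. Together 1 of 11 cytarabine genes was higher (RRM2B) and 2 lower (SLC29A1 and RRM2). For daunorubicin, AKR1C1, which reduces the drug to its alcohol, measured 16.7, 13.3 and 5.23 CPM with the combination, against 4.66, 5.5 and 5.77 CPM in DMSO (1.51 ± 0.23). AKR1C3 and the efflux pump ABCC3 were higher by 1.45 and 2.93, and TOP2B was at -0.35. The AKR1C genes share much of their sequence, and their counts are uncertain to that extent.

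Iron and redox genes split. HMOX1, heme oxygenase, measured 119, 40 and 4.61 CPM with the combination, against 18.3, 8.59 and 4.91 CPM in DMSO (2.92 ± 0.75), and the ferritin heavy chain FTH1 was higher by 1.31. TFRC, the transferrin receptor, measured 78, 77.5 and 197 CPM with the combination, against 187, 178 and 203 CPM in DMSO (-1.27 ± 0.18). The metallothionein MT2A had 3.65, 4.91 and 13.3 CPM with the combination, against 22.4, 13 and 16.1 CPM in DMSO (-1.98 ± 0.32), and MT1G was at -1.67. Of the 15 measured genes of this list 2 were higher, 3 were lower and 10 were not past both thresholds (median -0.19). SLC7A11, the cystine importer that supplies glutathione synthesis, measured 70.5, 59.2 and 9.8 CPM with the combination, against 9.7, 10.1 and 8.39 CPM in DMSO (2.80 ± 0.48), 1 of 4 higher genes among 16 targets of ATF4.

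Of 15 measured regulatory lncRNAs 4 were higher. MALAT1, an abundant nuclear RNA, measured 1215, 996 and 432 CPM with the combination, against 467, 407 and 527 CPM in DMSO (1.26 ± 0.20). PURPL, which is induced by p53 and limits it, measured 13.4, 14.3 and 2.83 CPM with the combination, against 1.04, 2.01 and 2.52 CPM in DMSO (2.91 ± 0.64). NEAT1, the scaffold of paraspeckles, was higher by 1.26 and LINC-PINT by 1.03. The libraries were unstranded, so antisense partners of these and other genes cannot be told apart.

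The 12 protein-coding genes with the largest positive and the 12 with the largest negative fold changes reached beyond these lists. The ranking took genes past both thresholds whose higher group averaged 5 CPM or more. It also required both replicates to lie on one side of all DMSO libraries. RND3, a small GTPase that counters contraction, measured 20.8, 15 and 1.02 CPM with the combination, against 1.95, 1.05 and 0.796 CPM in DMSO (3.84 ± 0.66). CEACAM1, an inhibitory adhesion receptor, had 11.8, 8.49 and 0.773 CPM with the combination, against 1.4, 0.585 and 0.597 CPM in DMSO (3.59 ± 0.63). Cytoglobin (CYGB) had 42.8, 34.7 and 3.36 CPM with the combination, against 4.2, 3.23 and 3.02 CPM in DMSO (3.49 ± 0.47). SLFN5, a Schlafen family gene that interferon raises, had 3.21. On the lower side DDN, the cytoskeletal protein dendrin, measured 0.786, 0.601 and 10.6 CPM with the combination, against 9.67, 8.33 and 11 CPM in DMSO (-3.79 ± 0.60). TBC1D30, a Rab GTPase-activating protein, had 2.04, 1.71 and 14 CPM with the combination, against 16.5, 10.3 and 17.6 CPM in DMSO (-2.96 ± 0.38). The cadherin CDH6 had 1.73, 3.7 and 17.2 CPM with the combination, against 15.3, 21.9 and 14 CPM in DMSO (-2.61 ± 0.43). In these 3 genes the library labelled replicate 3 was inside or next to the DMSO range. The amino acid transporter SLC38A5, the p38-activating kinase MAP2K6, and TUBA8, KCTD15, ITPRIPL1 and ANKRD18B were lower by values of -1.89, -1.85, -2.56, -2.18, -1.96 and -1.84.

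For 2 genes of this ranking a whole group was listed at 0, and no fold is given. FAM120B, a coactivator of PPARG, had estimated counts of 463, 653 and 0 in the combination libraries, 397, 627 and 0 in the daunorubicin libraries and 0, 371 and 552 in the cytarabine libraries, against 0, 0 and 0 in DMSO. VPS52, a subunit of a tethering complex of the Golgi, had 0, 0 and 121 in the combination libraries, 0, 736 and 383 in the daunorubicin libraries and 420, 477 and 213 in the cytarabine libraries, against 485, 334 and 523 in DMSO. Zeros thus stood in libraries of several treatments for both genes. Their cause was not tested.

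The comparison with daunorubicin alone asked what cytarabine added to it. Cytarabine against DMSO had 0 calls, with 484 genes at an unadjusted p under 0.05, in the edgeR fit without combination replicate 3. That cytarabine group included the library labelled replicate 3, which stood near a daunorubicin library. With all 3 libraries as labelled, edgeR called 0 of 16650 genes between the combination and daunorubicin, 358 had an unadjusted p under 0.05, and DESeq2 called 4. Replicates 1 and 2 alone also gave 0 calls, with 1509 genes at an unadjusted p under 0.05. The median size of the log2 difference between replicates 1 and 2 and daunorubicin was 0.141 over 17045 genes, and 503 genes differed by more than 1, of which 87 averaged at least 1 CPM in DMSO.

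CDKN1A measured 1389 and 1082 CPM in combination replicates 1 and 2, against 1260, 931 and 391 CPM in the daunorubicin libraries. The labelled difference was -0.02 (95% interval -1.57 to 1.54), and that of replicates 1 and 2 was 0.53. The labelled interval therefore held log2 differences past 1 in both directions. GDF15 gave 0.14 (-1.96 to 2.23) as labelled. DDN, CDH6 and SLC38A5, chosen after their values were seen, were below 0 in replicates 1 and 2 and above 0 in the labelled fit, with labelled intervals that include 0. DDN had 0.786 and 0.601 CPM, against 1.32, 1.69 and 5.11 CPM in the daunorubicin libraries. Its difference was -1.95, which was not called, and 0.58 (-1.18 to 2.35) as labelled. CDH6 had -1.33, and 0.13 as labelled. SLC38A5 had -1.05, and 0.08 as labelled. No interval is given for replicates 1 and 2, because these libraries were chosen by their expression against DMSO. In CDKN1A and DDN daunorubicin replicate 3 lay nearer to DMSO than daunorubicin replicates 1 and 2. Set against the same DMSO libraries, which both comparisons share, daunorubicin had 606 higher and 88 lower genes (3.56% and 0.516%, 4.07% in all). The p53 arrest list had 11 of 15 genes higher in the combination and 10 of 15 in daunorubicin, with medians of 1.38 and 1.25. The mitosis list had medians of -0.67 and -0.48 and the replication list -0.78 and -0.52.

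The combination was then compared with the same treatment in MOLM13 and HL60. In MOLM13 1910 genes rose and 908 fell (11.8% and 5.61%, 17.4% of 16184 tested), and in HL60 2650 rose and 981 fell (17% and 6.29%, 23.3% of 15608). Of the 1014 genes higher in OCIAML3, 776 were tested in MOLM13 and 454 rose there (44.8% of the OCIAML3 list and 23.8% of the MOLM13 list), and 658 were tested in HL60 and 404 rose there (39.8% and 15.2%). Of the 305 lower genes, 231 were tested in MOLM13 and 99 fell there (32.5% and 10.9%), and 218 were tested in HL60 and 52 fell there (17% and 5.3%). In all 3 lines 241 genes were higher and 27 lower, and 397 and 181 passed in neither other line, counts that include genes not tested in 1 or both of them. Calls were opposite to those of MOLM13 in 4 of the higher and 6 of the lower genes, and to those of HL60 in 9 of the higher and 37 of the lower genes. Across 15004 genes the log2 fold changes of replicates 1 and 2 had a Pearson correlation of 0.562 with those of MOLM13, and across 14377 genes one of 0.387 with those of HL60. For the library labelled replicate 3 these values were -0.081 and -0.025. These are descriptions across genes, which are not independent.

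**Figure D3:**
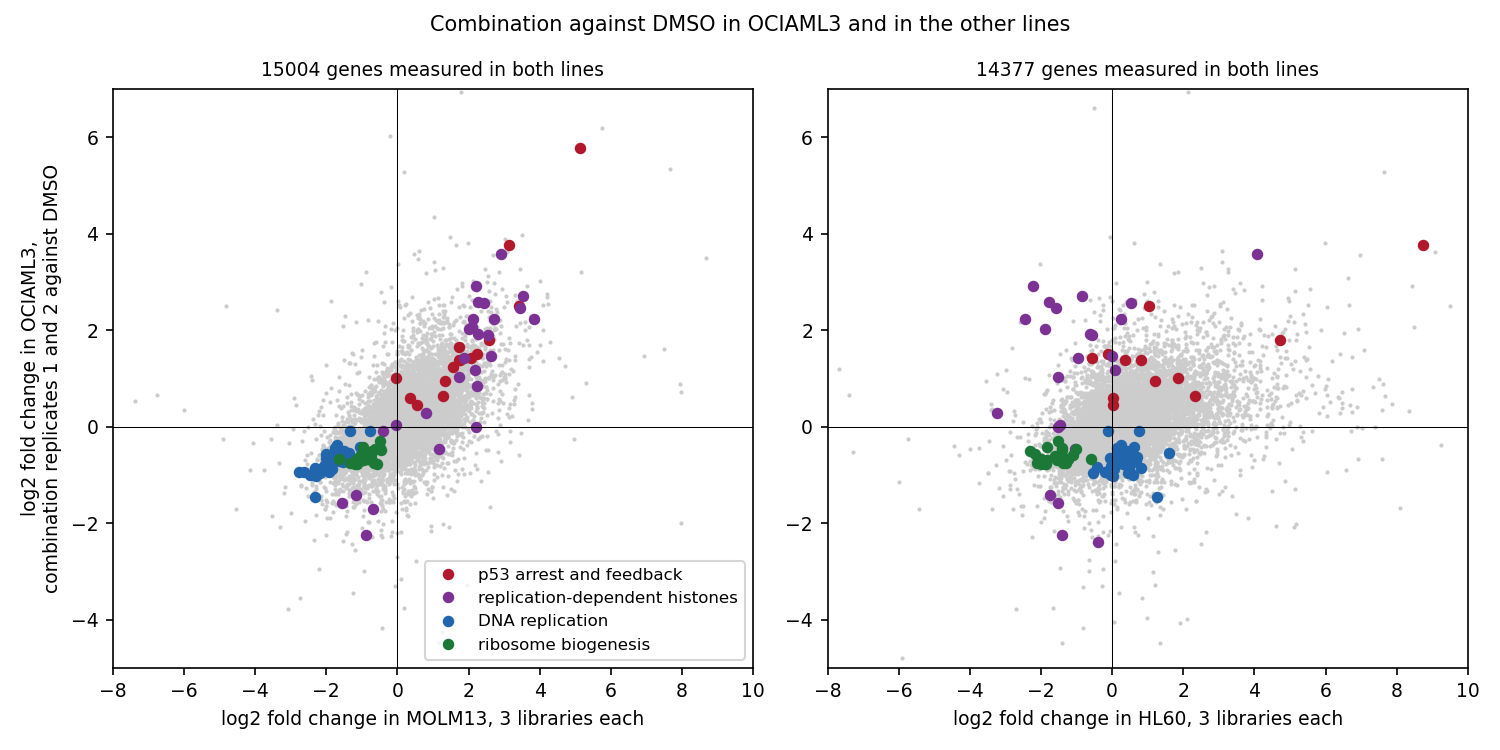
Log2 fold change after the combination in OCIAML3 (replicates 1 and 2, vertical) against that in MOLM13 (left, 15004 genes) and HL60 (right, 14377 genes, horizontal). Each point is a gene, colors mark 4 lists, and 28 and 20 genes beyond the axes are not drawn. The correlation across genes is 0.562 with MOLM13 and 0.387 with HL60.

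Some lists were shared between the lines and others were not. The p53 arrest list had 11 of 15 genes higher in OCIAML3, 12 of 15 in MOLM13 and 5 of 12 in HL60. DNA replication genes were lower in 2 of 37 past the fold threshold in OCIAML3 (median -0.78), fell in 35 of 37 in MOLM13 (median -1.92), and in HL60 2 rose and 0 fell (median 0.22). Histone genes were higher in 13 of 28 in OCIAML3 and rose in 17 of 27 in MOLM13, whereas 9 of 23 fell and 1 rose in HL60. Ribosome biogenesis had 0 of 26 past the threshold in OCIAML3, 9 lower in MOLM13 and 25 lower in HL60. AP-1 genes were higher in 8 of 27 in OCIAML3, and rose in 6 of 27 in MOLM13 and in 19 of 26 in HL60.

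**Figure D4:**
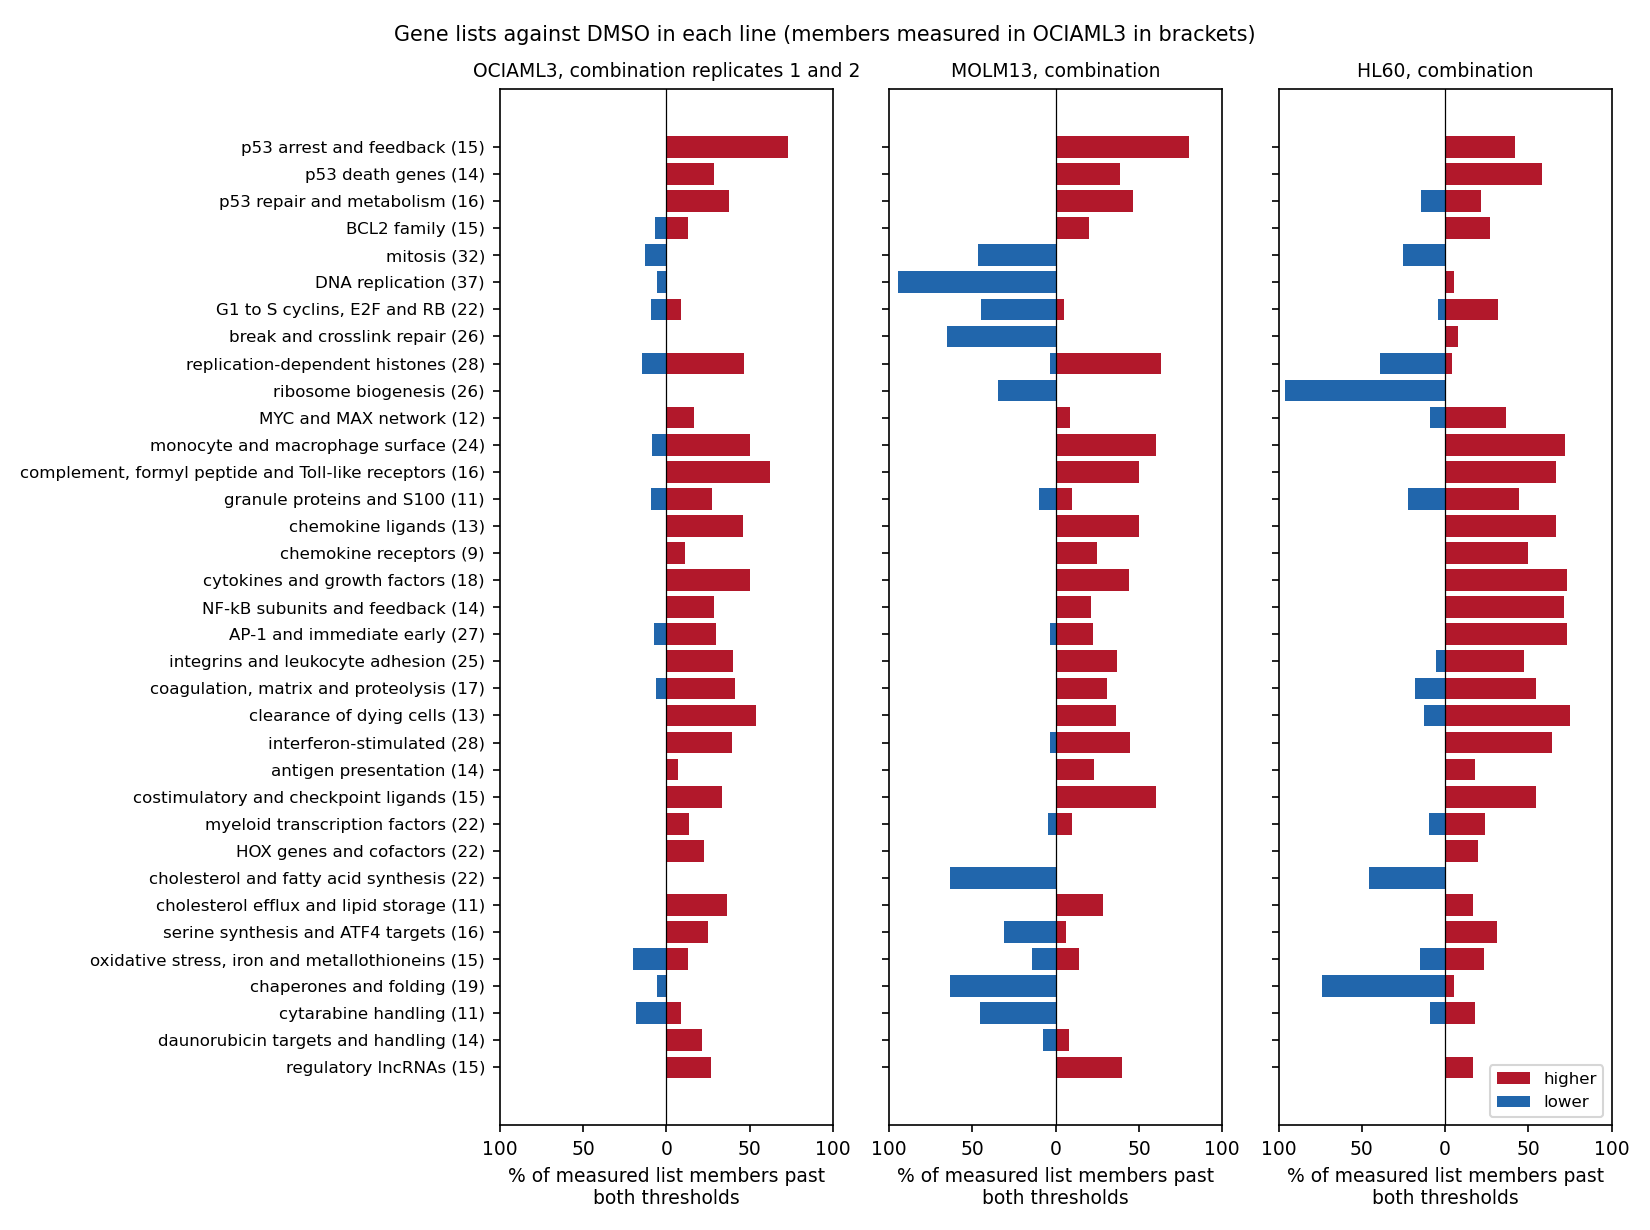
Share of the measured genes of each list, in percent, that were higher (right, red) or lower (left, blue) past both thresholds after the combination in OCIAML3 (replicates 1 and 2), MOLM13 and HL60. The DNA replication bar stands for 2 of 37 lower genes in OCIAML3, 35 of 37 in MOLM13 and 0 in HL60.

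The difference in the combination effect between the lines was tested over all 36 libraries as labelled. Larger and smaller refer here to the signed log2 change, so a gene that fell less in OCIAML3 counts as larger. Against MOLM13, 701 of 19053 genes differed (3.68%), 388 with a larger (2.04%) and 313 with a smaller (1.64%) log2 change in OCIAML3. This count was 426 without combination replicate 3 (231 and 195), 370 without MOLM13 DMSO replicate 1, 431 without OCIAML3 DMSO replicate 1, and 1367, 378 and 280 without MOLM13 combination replicates 1, 2 and 3 in turn. With DESeq2's size factors in edgeR the split was 293 and 357. Against HL60, 2262 genes differed (11.9%), 484 with a larger (2.54%) and 1778 with a smaller (9.33%) change in OCIAML3, and 2174 did so without replicate 3.

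SLC29A1 was at -1.03 in OCIAML3 replicates 1 and 2 and fell in MOLM13 (-2.36). The labelled difference, OCIAML3 minus MOLM13, was 1.81 ± 0.41 (edgeR adjusted p = 0.00666). It includes the library labelled combination replicate 3, at 178.4 CPM by library total, against 70.9 and 99.0 CPM in replicates 1 and 2. Of 11 cytarabine handling genes, 3 had a larger labelled value than in MOLM13, and 1 without that library. SLC7A11 did not pass in MOLM13 (-0.47), with a difference of 2.82 ± 0.74 (edgeR adjusted p = 0.0145). WNT7B, a Wnt ligand, fell in MOLM13 (-2.86) and was at 0.44 in OCIAML3, a difference of 3.19 ± 0.42 (edgeR adjusted p = 0.000206). TRIM22 was higher by 1.32 in OCIAML3 and rose by 2.47 in MOLM13, a labelled difference of -1.44 ± 0.40 (edgeR adjusted p = 0.0201). Of the DNA replication genes 25 of 37 had a larger (less negative) labelled value in OCIAML3 than in MOLM13, but only 4 without combination replicate 3, whose summed level of these genes, 7600 CPM, was above the 6472 to 7241 CPM of DMSO.

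Differences from HL60 included p53 targets, histones and AP-1 genes. CDKN1A rose by 8.73 log2 units in HL60, whose DMSO libraries were all under 1 CPM, and the labelled difference, OCIAML3 minus HL60, was -5.53 ± 1.17 (edgeR adjusted p = 0.000725). MDM2 was at -0.10 in HL60, with a difference of 1.20 ± 0.38 in the other direction (edgeR adjusted p = 0.0176), and ZMAT3 had one of 1.61 ± 0.37. The replication genes RRM2 and CCNE2 rose in HL60 by 1.25 and 2.35, and their differences were -1.97 ± 0.74 and -2.99 ± 0.74. The CCNE2 difference had an edgeR adjusted p of 0.00316 and that of RRM2 one of 0.048. The histone gene H2BC12 was higher by 2.24 in OCIAML3 and fell in HL60 (-2.44), a difference of 4.16 ± 0.66 (edgeR adjusted p = 2.76e-05). NCL and MYC fell in HL60 (-2.01 and -2.02), and their differences were 1.51 ± 0.24 and 1.47 ± 0.28. Both differences include the library labelled combination replicate 3, at 1573 and 245 CPM by library total, where OCIAML3 DMSO averaged 1500 and 246.9 CPM. JUN, NFKBIZ, KLF2 and CXCL8 rose in HL60, with differences of -4.39, -5.24, -5.55 and -5.28. By list, 17 of 26 ribosome biogenesis genes (11 without combination replicate 3) and 9 of 28 histone genes had a larger labelled value in OCIAML3, and 14 of 27 AP-1 genes, 11 of 28 interferon genes and 10 of 24 monocyte surface genes a smaller one. Without combination replicate 3 the counts were 11 for histone, 17 for AP-1, 11 for interferon and 11 for monocyte surface genes.

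**Figure D5:**
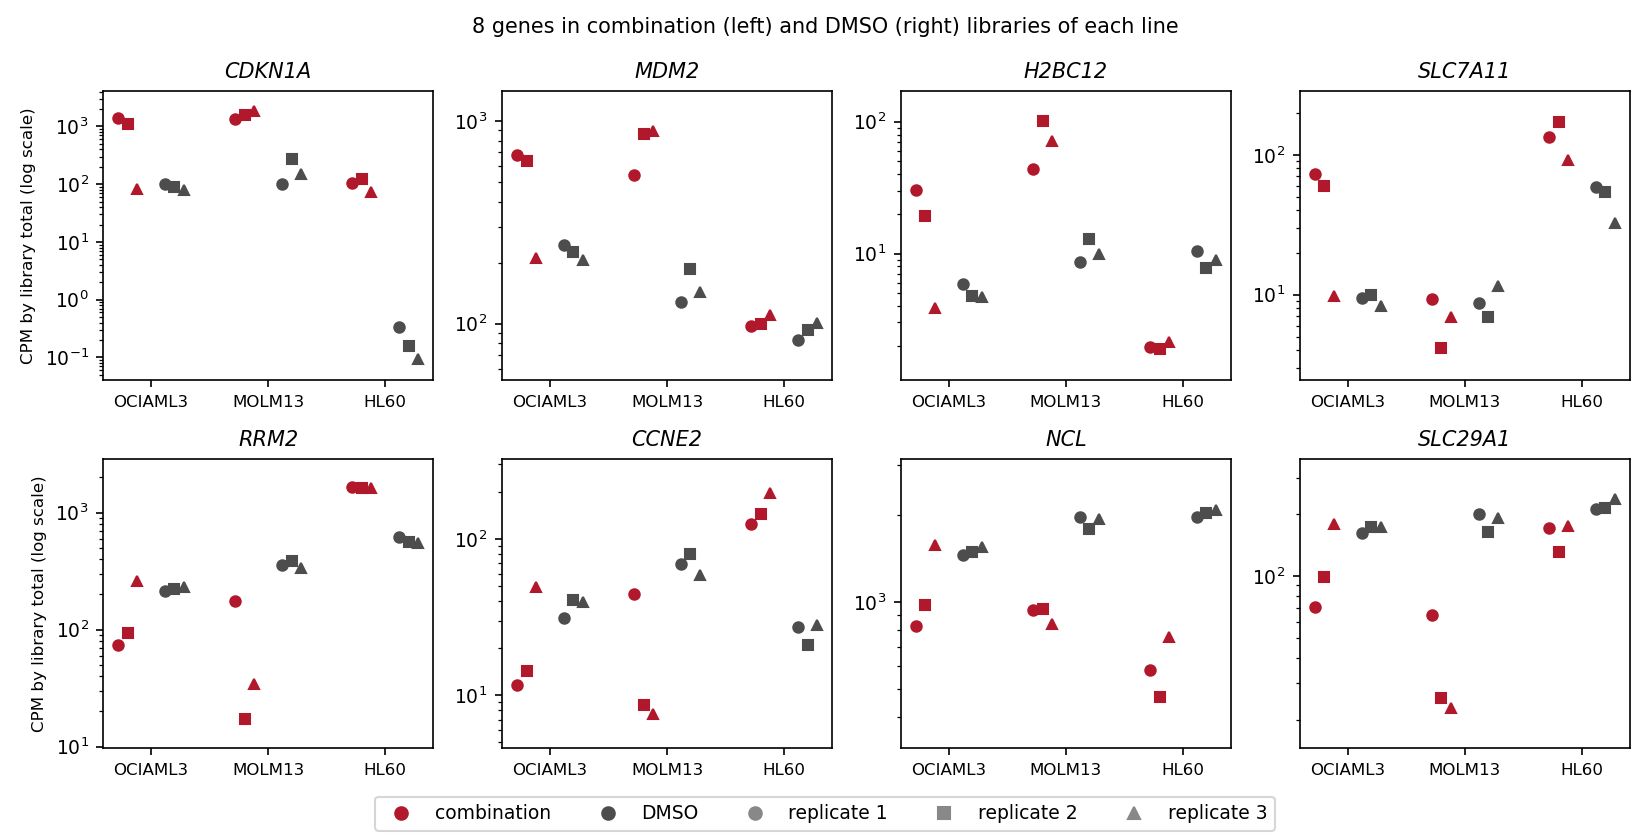
CPM by library total (log axis) of 8 genes in combination (red) and DMSO (grey) libraries of OCIAML3, MOLM13 and HL60, with a marker shape for each replicate. RRM2 and CCNE2 are lower after the combination in OCIAML3 replicates 1 and 2 and in MOLM13 and higher in HL60, while NCL is lower in OCIAML3 replicates 1 and 2, in MOLM13 and in HL60.

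Markers of other blood and tissue cells were low. The myeloid label, which all 3 lines share, was checked on 10 markers, of which 10 were measured, and their summed level was 3758, 3640 and 3016 CPM in the combination libraries, against 3023 to 3173 CPM in DMSO. Of 10 T and NK cell markers 1 was measured, at a sum of 0.82, 1.11 and 1.17 CPM, against 0.70 to 1.08 CPM in DMSO. B and plasma cell markers summed to 2.80, 4.72 and 3.64 CPM, against 2.21 to 4.45 CPM in DMSO, and epithelial and stromal markers to 1.20, 0.51 and 0.80 CPM, against 0.55 to 0.93 CPM in DMSO. Among the 8 megakaryocyte markers 5 were measured, at 10.0, 9.89 and 8.10 CPM, against 6.50 to 8.26 CPM in DMSO. None of the 9 erythroid markers passed the filter. A list of 10 genes listed as cell line markers summed to 329 and 379.6 CPM in combination replicates 1 and 2 and 571 CPM in the library labelled replicate 3, against 580.4 to 618 CPM in DMSO, and in it HOXB9 was higher and FLT3 and PRTN3 were lower.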

How the data were processed

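RNA sequencing libraries of OCIAML3, MOLM13 and HL60 cells were quantified by the authors with Salmon 1.8.0 against an Ensembl transcriptome of GRCh38 (release not given in the sources used here), after FastQC 0.11.9. The deposited tables hold, per transcript, an estimated count and a TPM value with effective lengths, and the submitters' notes also name edgeR 3.38.1. Estimated counts as deposited were summed per gene with GENCODE v44 and rounded. Of 252199 transcripts listed, 235378 matched 59041 genes and 16821 were left out. The deposited TPM values were not tested, and effective lengths entered only an alternative with a length offset. The number of per-sample columns of no sample was 0.

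Genes were kept by edgeR's filterByExpr (minimum count 10, minimum total 15) and tested with TMM scaling and the quasi-likelihood test of edgeR 4.0.16 (R 4.3.3), with a Benjamini-Hochberg adjusted p below 0.05 and more than 1 log2 unit of change required. The 4 OCIAML3 groups shared a fit, and differences between lines were interaction terms over 36 libraries. Values are CPM with TMM scaling over 12 OCIAML3 libraries. Fold changes of combination replicates 1 and 2 came from 11 libraries, without combination replicate 3, and their SE is the log2 fold change over the square root of F. Intervals are 1.96 SE on either side. The fit of 11 libraries was tested on simulated data for the combination against DMSO, and the other fits were not.

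Genes named were the 12 protein-coding genes per direction with the largest change past both thresholds, where the higher group averaged 5 CPM or more, with both replicates on the same side of all DMSO libraries, members of functional lists, the 6 per direction with the largest difference for each other contrast under the same level rule, and marker lists. Of the genes named by line differences, 14 with a line under 1 CPM or a group at 0 are not described, ATP2B1 was not called in the labelled fit, and some other genes that this rule names are not reported here. The members and lists were chosen with earlier results of these data known. Deviations of same-numbered combination and daunorubicin libraries from their group means had correlations of 0.416, 0.121 and 0.484. In both groups replicate 1 lay farthest from DMSO and replicate 3 nearest, so these values cannot show whether the replicate numbers pair. A fit with a replicate block also gave 0 calls between the combination and daunorubicin. No pair of replicates agreed within sampling noise (mean chi-square per gene 6.78 to 182.8). Depth in the 12 OCIAML3 libraries was 27789707 to 47322144 estimated counts. Alternatives were DESeq2 1.42.0, DESeq2's size factors, other filters, a replicate block, other sets of libraries and leaving out each library. Figures were drawn with matplotlib 3.10.9.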

Additional observations from a re-analysis of the deposited data

Results flagged for a closer look

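The effect of the combination differed between OCIAML3 and another line, by the interaction test with all libraries as labelled, in 701 genes for MOLM13 and 2262 genes for HL60. Values below are log2 effects in OCIAML3 minus those in the other line, and explanations were not tested. The OCIAML3 effects average in the library labelled combination replicate 3, which lay near DMSO. Positive values include genes that fell less in OCIAML3, and negative values include genes that fell there and rose in the other line.

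Against MOLM13 the difference was positive for WNT7B (3.19), the cystine importer SLC7A11 (2.82), the sphingosine-1-phosphate receptor S1PR3 (2.62) and the cytarabine transporter SLC29A1 (1.81). It was negative for ADAM11 (-2.90), FCGR2C (-2.70) and TRIM22 (-1.44). ADAM11 averaged 0.45 CPM in MOLM13 DMSO libraries, and WNT7B 0.63 CPM in MOLM13 combination libraries.

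Against HL60 the difference was positive for the histone genes H2BC12 (4.16), H2BC5 (3.51) and H2AC6 (2.98), and for PRTN3 (4.41). The same held for NCL (1.51), MYC (1.47) and the p53 targets ZMAT3 (1.61) and MDM2 (1.20). The difference was negative for the p53 targets CDKN1A (-5.53) and BTG2 (-3.38) and for the S-phase genes RRM2 (-1.97), E2F8 (-2.21) and CCNE2 (-2.99). Negative values also belonged to JUN (-4.39), NFKBIZ (-5.24), CXCL8 (-5.28), KLF2 (-5.55), CD86 (-3.59), FCGR2C (-6.68) and TREM1 (-6.88). In HL60 DMSO, CDKN1A, NFKBIZ, KLF2, CD86, FCGR2C and TREM1 averaged 0.20, 0.22, 0.098, 0.80, 0.11 and 0.023 CPM. H2BC5 averaged 0.86 CPM in HL60 combination libraries. Such differences rest on few counts in HL60.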

How the results depend on the processing

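The count of genes past both thresholds in combination replicates 1 and 2 was 1319. It was 6699 without a fold threshold, 0 with all 3 combination libraries as labelled, and 579 to 1521 when 1 library was left out. DESeq2 gave 1261, DESeq2's size factors 1315, no filter 1555 and a strict filter 1041. With all 3 libraries, DESeq2 called 8 genes, a fit of 36 libraries 2, and leaving out 1 library gave 0 to 1319, the highest without combination replicate 3. Against daunorubicin DESeq2 called 4 genes, and leaving out 1 library gave 0 to 1, including the daunorubicin libraries, a choice made after seeing the data. The difference from MOLM13 counted 701 genes, 2322 without a fold threshold, 426 without combination replicate 3, and 280 to 1367 with 1 library left out. DESeq2 gave 385 positive and 474 negative differences there. The difference from HL60 counted 2262 genes, 5088 without a fold threshold and 1926 to 2443 with 1 library left out. The 197 named genes were all called in replicates 1 and 2, and with all 3 libraries as labelled 197 of 197 lost their call. None changed the sign of its combination against DMSO fold change under these alternatives. Every alternative kept at least 1 of replicates 1 and 2, so the unchanged signs are no independent check. The differences from daunorubicin of DDN (-1.95), CDH6 (-1.33) and SLC38A5 (-1.05) were 0.58, 0.13 and 0.08 as labelled. The MOLM13 split, 388 positive and 313 negative differences, was 293 and 357 with DESeq2's size factors.

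Deviations of same-numbered DMSO and combination libraries had correlations of 0.146, -0.004 and 0.094. With a replicate block the counts were 1278 for replicates 1 and 2, 0 for all 3 libraries, 0 against daunorubicin, 1011 against MOLM13 and 2464 against HL60. Among libraries left out in turn from the fit of replicates 1 and 2, combination replicate 1 cost the most calls, 84 of the 197 named genes. Genes under 1 CPM in DMSO rest on few counts, and 43.3% of the higher genes were of that kind.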
